A study of Mus musculus with 120 samples.

Results

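Soleus muscle from 3 endurance-trained ND5 mice classed as exercise responders (B11, B69 and B80) was compared with soleus from 3 trained ND5 mice classed as non-responders (B4, B9 and B98). Each class was also set against 6 non-exercised ND5 mice (B3, B10, B19, B47, B70 and B85). The 6 trained libraries were picked by strain, tissue, treatment and response class in the labels, out of 120 samples in the series. The study trained mice of several strains with mitochondrial mutations and sequenced mRNA of soleus, a small postural muscle of the lower leg rich in slow oxidative fibres, and of heart. Some fits also used soleus of other mutant strains, labelled ANT1-/-, CO1V421A and ND6P25L.

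All 12 ND5 mice carried the mtDNA change C12352T (S204F in the ND5 protein) on the C57BL/6Eij (Nnt+/+) background. Training began at 16 weeks of age and lasted 8 weeks, with runs of 45 min on alternate days at 50% of maximal capacity, while non-exercised mice were only handled. Running capacity was tested before and after that period, and tissue was taken after 6 days without training. The labels give the class of each trained mouse but not how the classes were defined, nor its running times, nor the interval between the closing test and tissue collection. Every group carries the mutation, so the comparisons describe variation among ND5 mice and not the effect of the mutation, and the unmutated control strain was not analysed here.

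One label conflict touches the responder group. The soleus library of B80 is labelled exercised and responder, while a heart library of a mouse with the same number is labelled non-exercised. Comparisons with non-responders and counts of called genes are therefore given with and without B80 where it matters. List values against non-exercised mice are given with B80 only. Other libraries stood apart in a principal component analysis of the 500 most variable genes. On the first component (43.5% of the variance) the non-exercised B19, B70 and B85 lay at -20.87, -31.22 and -28.08, and the other 9 libraries between -8.47 and 22.10. On the second (17.7%) the responder B69 lay at 34.47 and the other 11 libraries between -9.78 and 4.12. No 2 libraries of a group held identical values.

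Library totals were 16127703, 16861972 and 18001421 counts in the responders B11, B69 and B80, against 12492191, 13313626 and 12710135 counts in the non-responders B4, B9 and B98, and 10205676 to 13757022 counts in non-exercised mice. Every responder library was therefore deeper than every other one, and depth and response class cannot be told apart in these data. An exact two-sided permutation test gave p = 0.10 for responders against non-responders, the smallest value that 3 against 3 allows, and 0.150 after adjustment over 3 contrasts. The tissue label held up in every library: the slow-muscle genes Myh7, Tnni1, Tnnt1, Myl2, Myl3 and Atp2a2 and the muscle genes Ckm and Acta1 all ranked among the 86 genes with the highest FPKM.

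ND5 is a core, mtDNA-encoded subunit of complex I, the first enzyme of the respiratory chain, and sits in the proton-pumping arm in the membrane. Trained muscle is known for added mitochondrial content, capillaries and slow-fibre traits that outlast each run. A single bout of contraction, stretch or heat also sets off short-lived programmes: immediate early genes such as Atf3, Btg2, Egr1 and Fos respond first, followed by chaperones of the heat shock and endoplasmic reticulum families and by load-sensing genes of the Z-disc such as Xirp1 and Flnc.

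The site of the shared mutation is shown because it defines the strain. The stretch below is the reference sequence of mt-Nd5 on the plus strand of the mitochondrial genome (GRCm38, chrM:12321-12383, GENCODE vM21, coding exon), with the affected codon in capitals. The strain carries C12352T at the middle base of that codon, which turns serine TCC into phenylalanine TTC.
mt-Nd5: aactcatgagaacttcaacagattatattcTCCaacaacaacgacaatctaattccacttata

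The level of mt-Nd5 mRNA was 11600, 10100 and 12300 CPM (a gene's count per 1000000 counts of its library, scaled by TMM) in responders, against 11100, 8070 and 11700 CPM in non-responders and 5250 to 12300 CPM (median 8030) in non-exercised mice. The classes overlapped, with the lowest trained level in the non-responder B9. The log2 difference of responders over non-responders was 0.14 ± 0.26 (SE, n = 3 each, edgeR's quasi-likelihood test). Nnt, the mitochondrial transhydrogenase whose intact allele the background is chosen for, was expressed in all 12 libraries, at 474, 420 and 419 CPM in responders against 519, 250 and 507 CPM in non-responders.

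The comparison of responders with non-responders asks which transcripts differ between trained mice of the 2 labelled classes, whose defining measure the labels do not state. Across 13737 genes tested, no gene passed an adjusted p of 0.05 in edgeR's quasi-likelihood test, and the smallest adjusted p was 0.692. At an unadjusted p under 0.05 there were 968 genes (7.05%), 571 higher in responders (4.16%) and 397 lower (2.89%). The 3 responder libraries all lay above the 3 non-responder libraries for 696 genes (5.07%) and all below for 746 genes (5.43%). The median log2 difference over all genes was 0.00. P-values measure the spread between these mice, and unless stated otherwise no gene named below passed the adjusted test in the fit of the 12 ND5 libraries.

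Other fits called some genes. A fit of 48 soleus libraries from 4 mutant strains, which shares 1 estimate of the spread, called 34 of 14451 genes (0.235%), 26 higher (0.180%) and 8 lower (0.0554%) in responders. DESeq2 on the 12 libraries called 9, and limma voom with quality weights called 0 with 1001 genes at an unadjusted p under 0.05. The calls changed with the libraries that entered. The 48-library fit called 0 genes without B69, 0 without B9, 1 without B4, 1 without B98, 121 without B11 and 322 without B80. Leaving out a library also leaves fewer mice in its class, so a drop in calls does not show that the library carried them. Without B80, the 12-library fit called 4 genes, all higher in responders: Xirp1, Ifrd1, Atf3 and Btg2. It called 0 when B11, B69, B4, B9 or B98 was left out instead, and B80 is the responder that differs most from B11 and B69 in these genes.

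Among the lists with more than 1 gene tested, the immediate early genes had the highest median. Of 21 tested, 19 had a positive log2 difference, 9 were higher at an unadjusted p under 0.05 and 6 did not overlap between classes, and their median was 1.12 against 0.00 for all genes. The shares over all genes were 4.16% higher at that p and 5.07% above without overlap. Relative to the non-exercised mean, the average log2 level of the list was 1.30 in B11, 1.04 in B69 and -0.18 in B80, against -0.28, 0.03 and -0.41 in B4, B9 and B98. B80 therefore lay within the range of the non-responders, as the plot of list levels by library shows, and the median of the list was 0.57 without B69, 0.66 without B11 and 1.43 without B80.

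Atf3, a stress-induced transcription factor of the ATF family, stood at 428, 239 and 31.2 CPM in the responders B11, B69 and B80, against 37.2, 42.7 and 14.1 CPM in the non-responders B4, B9 and B98 and 30.5 to 39.5 CPM (median 33.6) in non-exercised mice. B11 and B69 exceeded every other library many-fold, while B80 fell inside the range of the other groups. The log2 difference between the classes was 2.89 ± 0.69 (SE, n = 3 each; edgeR unadjusted p = 0.00146, adjusted p = 0.692), with an adjusted p of 0.0206 in the 48-library fit and of 0.0109 in the 12-library fit without B80.

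Btg2, an antiproliferative immediate early gene, stood at 267, 105 and 38.9 CPM in responders, against 35.6, 33.3 and 28.4 CPM in non-responders and 34 to 49.2 CPM (median 39.0) in non-exercised mice. All 3 responders lay above all 3 non-responders, but B80 did so by a narrow margin and lay inside the non-exercised range. The log2 difference was 2.08 ± 0.49 (SE, n = 3 each; edgeR adjusted p = 0.692; 0.024 in the 48-library fit).

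Egr1, a zinc finger factor induced by growth signals and contraction, had 27.5, 89.2 and 7.48 CPM in responders, against 6.30, 6.74 and 4.64 CPM in non-responders and 3.79 to 18.8 CPM (median 11.5) in non-exercised mice. Its classes did not overlap, and the log2 difference was 2.81 ± 0.80 (edgeR adjusted p = 0.692). Fos, a subunit of the AP-1 factor, which was picked after its values were seen, had 106, 30.4 and 6.50 CPM in responders, against 10.3, 7.75 and 10.9 CPM in non-responders. B80 held the lowest Fos level of the 6 trained libraries, so the classes overlapped.

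**Figure D1:**
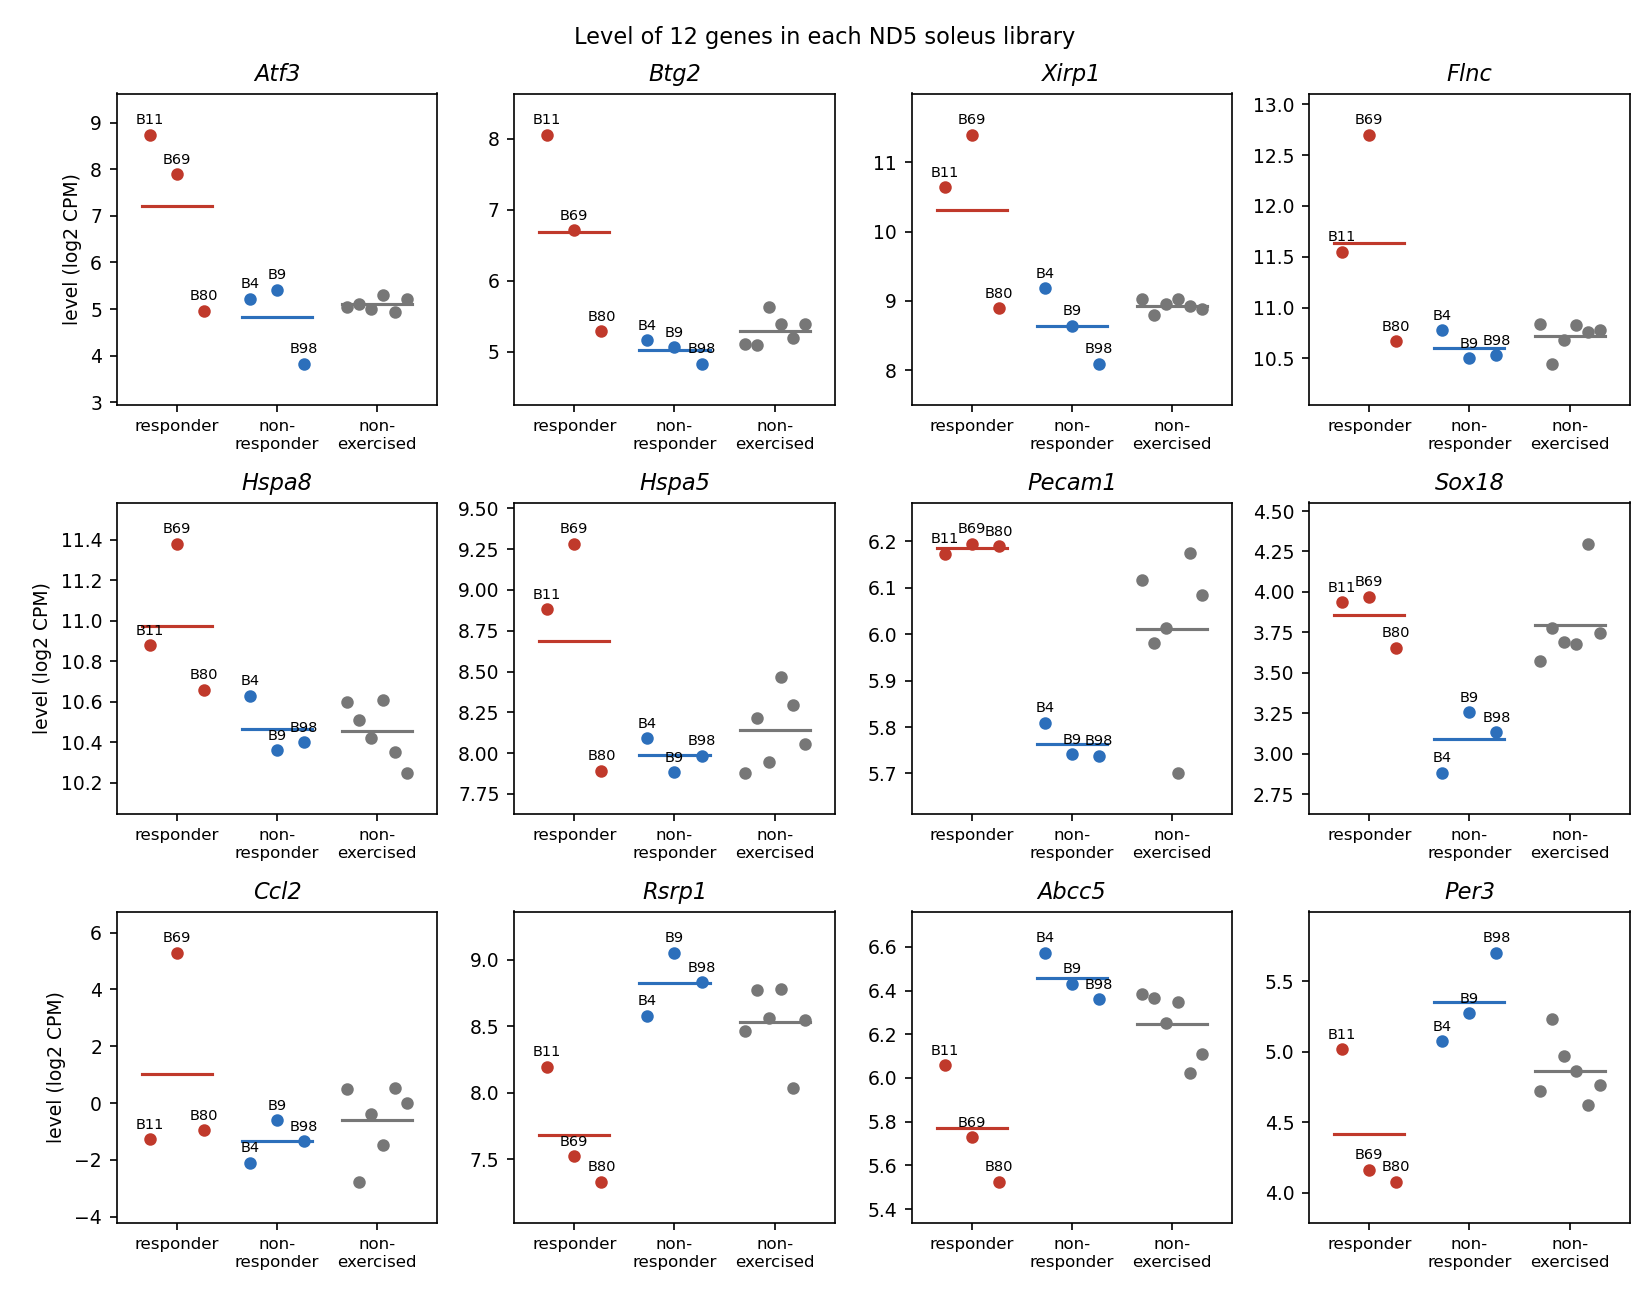
Level in log2 CPM of 12 genes in each ND5 soleus library; each point is a library, each line a group mean, and trained libraries carry their mouse number. For Atf3, Xirp1 and Flnc, B11 and B69 lie above all other libraries while B80 lies among the non-responders and non-exercised mice, and for Rsrp1 and Abcc5 all 3 responders lie below all 3 non-responders.

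Load-responsive genes of the Z-disc and cytoskeleton followed the same libraries. Of 16 tested, 15 had a positive log2 difference, 7 were higher at an unadjusted p under 0.05, and the median was 0.57 against 0.00 for all genes. The median was 0.25 without B69 and 0.75 without B80. Of all genes, 4.16% were higher at that p.

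Xirp1, an actin-binding protein that gathers at damaged or loaded myofibrils, had 1590, 2710 and 476 CPM in responders, against 580, 400 and 273 CPM in non-responders and 443 to 519 CPM (median 490) in non-exercised mice. B80 lay below the non-responder B4, so the classes overlapped. Between the classes the log2 difference came to 1.93 ± 0.46 (SE, n = 3 each; edgeR adjusted p = 0.692; 0.0344 in the 48-library fit; 0.0109 without B80).

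Flnc, filamin C of the Z-disc, had 3010, 6670 and 1630 CPM in responders, against 1760, 1440 and 1480 CPM in non-responders and 1400 to 1840 CPM (median 1740) in non-exercised mice. Only B11 and B69 exceeded the non-exercised range, and the log2 difference was 1.27 ± 0.36 (edgeR adjusted p = 0.692). Enah, an actin regulator that promotes filament elongation, had 296, 575 and 166 CPM in responders, against 151, 143 and 102 CPM in non-responders, with no overlap and a log2 difference of 1.39 ± 0.36. Its non-exercised range of 123 to 217 CPM enclosed B80 and 2 of the non-responders.

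Ankrd1, a stretch-sensing ankyrin repeat protein picked after its values were seen, shows how far 1 library can carry a mean. It had 69.5, 594 and 89.8 CPM in responders, against 55.2, 200 and 27.2 CPM in non-responders. Only B69 was high, and the log2 difference of 1.41 ± 1.01 (edgeR unadjusted p = 0.192) turned to -0.24 without B69.

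Cytosolic heat shock genes were also higher in B11 and B69. Of 15 tested, 14 had a positive log2 difference, 9 were higher at an unadjusted p under 0.05 and 3 did not overlap between classes, with a median of 0.54 against 0.00 for all genes. That median was 0.30 without B69 and 0.69 without B80. For comparison, 4.16% of all genes were higher at that p and 5.07% lay above without overlap.

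Hspa8, the constitutive cytosolic chaperone of the Hsp70 family, had 1880, 2670 and 1620 CPM in responders, against 1580, 1310 and 1350 CPM in non-responders and 1210 to 1560 CPM (median 1410) in non-exercised mice. All 3 responders, B80 included, lay above all 9 other libraries, by the widest margin in B69. The log2 difference was 0.54 ± 0.17 over non-responders and 0.54 ± 0.15 over non-exercised mice (edgeR adjusted p = 0.692 and 0.363).

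Hsph1, a nucleotide exchange partner of Hsp70, had 106, 154 and 91.6 CPM in responders, against 79.3, 75.8 and 72.1 CPM in non-responders. Dnajb1, a co-chaperone of the Hsp40 family, had 41.8, 22.9 and 10.9 CPM in responders, against 12.7, 12.2 and 9.78 CPM in non-responders. Responders lay above non-responders throughout for Hsph1, but B80 lay among the non-responders for Dnajb1.

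The stress-inducible Hsp70 genes Hspa1a and Hspa1b, picked after their values were seen, are near-identical copies whose reads may have been divided between them. Hspa1a had 378, 338 and 95.2 CPM in responders, against 154, 62 and 45.5 CPM in non-responders. Hspa1b had 280, 304 and 49.2 CPM in responders, against 96.4, 43 and 18.3 CPM in non-responders. B80 lay below the non-responder B4 for both.

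Endoplasmic reticulum chaperones, which fold secreted and membrane proteins, formed a further group. Of 18 tested, 16 had a positive log2 difference, 7 were higher at an unadjusted p under 0.05 and 5 did not overlap between classes. Their median log2 difference was 0.42, or 0.27 without B69 and 0.62 without B80. Among all genes, 4.16% were higher at that p and 5.07% lay above without overlap. The summed level of the list was 1967, 2247 and 1404 CPM in B11, B69 and B80, against 1407, 1368 and 1395 CPM in B4, B9 and B98 and 1417 to 1852 CPM in non-exercised mice. B80 lay with the non-responders, and the highest non-exercised library lay just under B11.

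Hspa5, the chaperone BiP that senses misfolded protein in the endoplasmic reticulum, had 472, 623 and 237 CPM in responders, against 273, 236 and 253 CPM in non-responders and 235 to 353 CPM (median 281) in non-exercised mice. B11 and B69 lay above all other libraries and B80 near the bottom. This gave a log2 difference of 0.81 ± 0.27 (SE, n = 3 each; edgeR adjusted p = 0.692).

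Xbp1, a transcription factor of the unfolded protein response, had 64, 88.2 and 45.2 CPM in responders, against 40.4, 39.3 and 43.3 CPM in non-responders. B80 lay only just above the non-responders. The log2 difference was 0.68 ± 0.18 (edgeR adjusted p = 0.692; 0.0344 in the 48-library fit).

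The start sites of 3 genes of these groups are shown because their lists were high in the same 2 libraries. The sequences are the 250 bases before each start in the RefSeq promoter table (GRCm38.p6), on the gene's strand, and capitals mark matches to a motif. Motifs searched on both strands were the cAMP response element TGACGTCA, the AP-1 site TGANTCA, the short heat shock element GAANNTTC, the endoplasmic reticulum stress response element (CCAAT and CCACG parted by 9 bases) and the CArG box. In Btg2 (chr1:134079156-134079405, minus strand) the capitals mark TGACGTCA, 166 to 159 bases before the start. In Hspa1a (chr17:34972157-34972406, minus strand) they mark the heat shock element, 104 to 97 bases before it. In Hspa5 (chr2:34771840-34772089, plus strand) they mark an AP-1 site at 182 to 176 and the stress response element at 65 to 47 bases before it. No marked site overlaps another.
Btg2: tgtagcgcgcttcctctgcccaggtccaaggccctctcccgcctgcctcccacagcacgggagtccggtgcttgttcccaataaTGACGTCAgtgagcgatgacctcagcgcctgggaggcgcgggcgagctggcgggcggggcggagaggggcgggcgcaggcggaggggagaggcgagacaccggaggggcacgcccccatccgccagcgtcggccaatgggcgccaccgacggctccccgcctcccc
Hspa1a: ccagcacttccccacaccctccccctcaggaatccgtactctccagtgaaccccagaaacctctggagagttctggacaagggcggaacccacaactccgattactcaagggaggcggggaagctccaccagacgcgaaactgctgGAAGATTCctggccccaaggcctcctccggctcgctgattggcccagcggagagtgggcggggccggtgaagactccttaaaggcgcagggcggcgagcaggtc
Hspa5: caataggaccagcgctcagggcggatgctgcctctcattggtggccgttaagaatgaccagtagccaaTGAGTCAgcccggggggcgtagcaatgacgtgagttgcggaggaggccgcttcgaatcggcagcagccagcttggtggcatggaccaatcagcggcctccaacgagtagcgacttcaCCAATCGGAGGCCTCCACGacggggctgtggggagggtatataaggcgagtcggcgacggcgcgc

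The table held 27025 genes. The heat shock element was present before 6 of 12 heat shock genes with an entry (50.0%) and 7.73% of all genes. The endoplasmic reticulum stress response element was present before 6 of 16 chaperone genes (37.5%) and 0.13% of all genes. The cAMP response element and the CArG box were each present before 2 of 16 immediate early genes (12.5%), against 1.77% and 1.62% of all genes. The CArG box was also present before 3 of 14 load-responsive genes (21.4%), and the heat shock element before 5 of them (35.7%). The AP-1 site was present before 0 of 16 immediate early genes, 0 of 12 heat shock genes, 2 of 14 load-responsive genes (14.3%) and 2 of 16 chaperone genes (12.5%), against 7.82% of all genes. A match describes the letters in this window and not binding.

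Some single genes were high in B69 alone. Ccl2, a monocyte-attracting chemokine picked after its values were seen, had 0.264, 39.0 and 0.368 CPM in B11, B69 and B80, against 0.0851, 0.507 and 0.249 CPM in non-responders and 0 to 1.31 CPM in non-exercised mice. Only B69 expressed it at more than a trace. Hbegf, an EGF receptor ligand, had 15.4, 142 and 11.5 CPM in responders, against 7.24, 12.6 and 5.22 CPM in non-responders.

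Csf3r, the granulocyte colony-stimulating factor receptor of neutrophils, had 0.330, 6.88 and 0.675 CPM in responders, against 0.170, 0.580 and 0.332 CPM in non-responders. The 10 neutrophil markers summed to 0.528, 14.7 and 0.920 CPM in responders, against 0.596, 0.652 and 0.332 CPM in non-responders and 0.313 to 1.83 CPM in non-exercised mice, with at least 5 markers at 0 in every library. Sums of the complement and interferon lists did not set B69 apart. Complement and antigen presentation genes summed to 526.8, 404 and 401.2 CPM in B11, B69 and B80. Interferon-stimulated genes summed to 109.5, 111.1 and 103.6 CPM in the same libraries. Markers of fibroblasts and their progenitors did set B69 apart, on the low side. They summed to 716 CPM in B69, against 1140 to 1440 CPM in the other ND5 libraries. B69 alone held more than a trace of the neutrophil transcripts, and their part in its other differences was not tested. Bulk RNA cannot tell more cells of a type from more RNA per cell.

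Macrophage markers showed no such separation of the classes. Of 17 tested, 10 had a positive log2 difference and 1 was higher at an unadjusted p under 0.05, against 4.16% of all genes. Their summed level was 220, 350 and 242 CPM in responders, against 193, 305 and 166 CPM in non-responders and 186 to 508 CPM in non-exercised mice. Cd68, a lysosomal glycoprotein of macrophages, had 7.19, 22.2 and 7.91 CPM in responders, against 5.11, 7.39 and 3.65 CPM in non-responders. Itgam and Fcer1g, with Cd68 the 3 genes of the list with the smallest p, also peaked in B69. Scaled over 48 libraries, Itgam had 2.92, 24.9 and 2.66 CPM in responders, against 2.69, 4.29 and 2.82 CPM in non-responders. B69 ranked 1st of 48 for all 3 genes. The median of the list was 0.26 with all libraries and -0.06 without B69.

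Srxn1, which repairs oxidised peroxiredoxins and is a target of the antioxidant factor Nrf2, also peaked in B69. It had 97.7, 293 and 62.3 CPM in responders, against 60.6, 52.1 and 37.6 CPM in non-responders, with no overlap between classes and a log2 difference of 1.59 ± 0.44 (edgeR adjusted p = 0.692; 0.0244 in the 48-library fit). The 23 antioxidant genes as a list had a median of 0.08, with 21 positive, 2 higher at an unadjusted p under 0.05 and 3 with no overlap. Over all genes, 4.16% were higher at that p, and 5.07% lay above and 5.43% below without overlap.

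**Figure D2:**
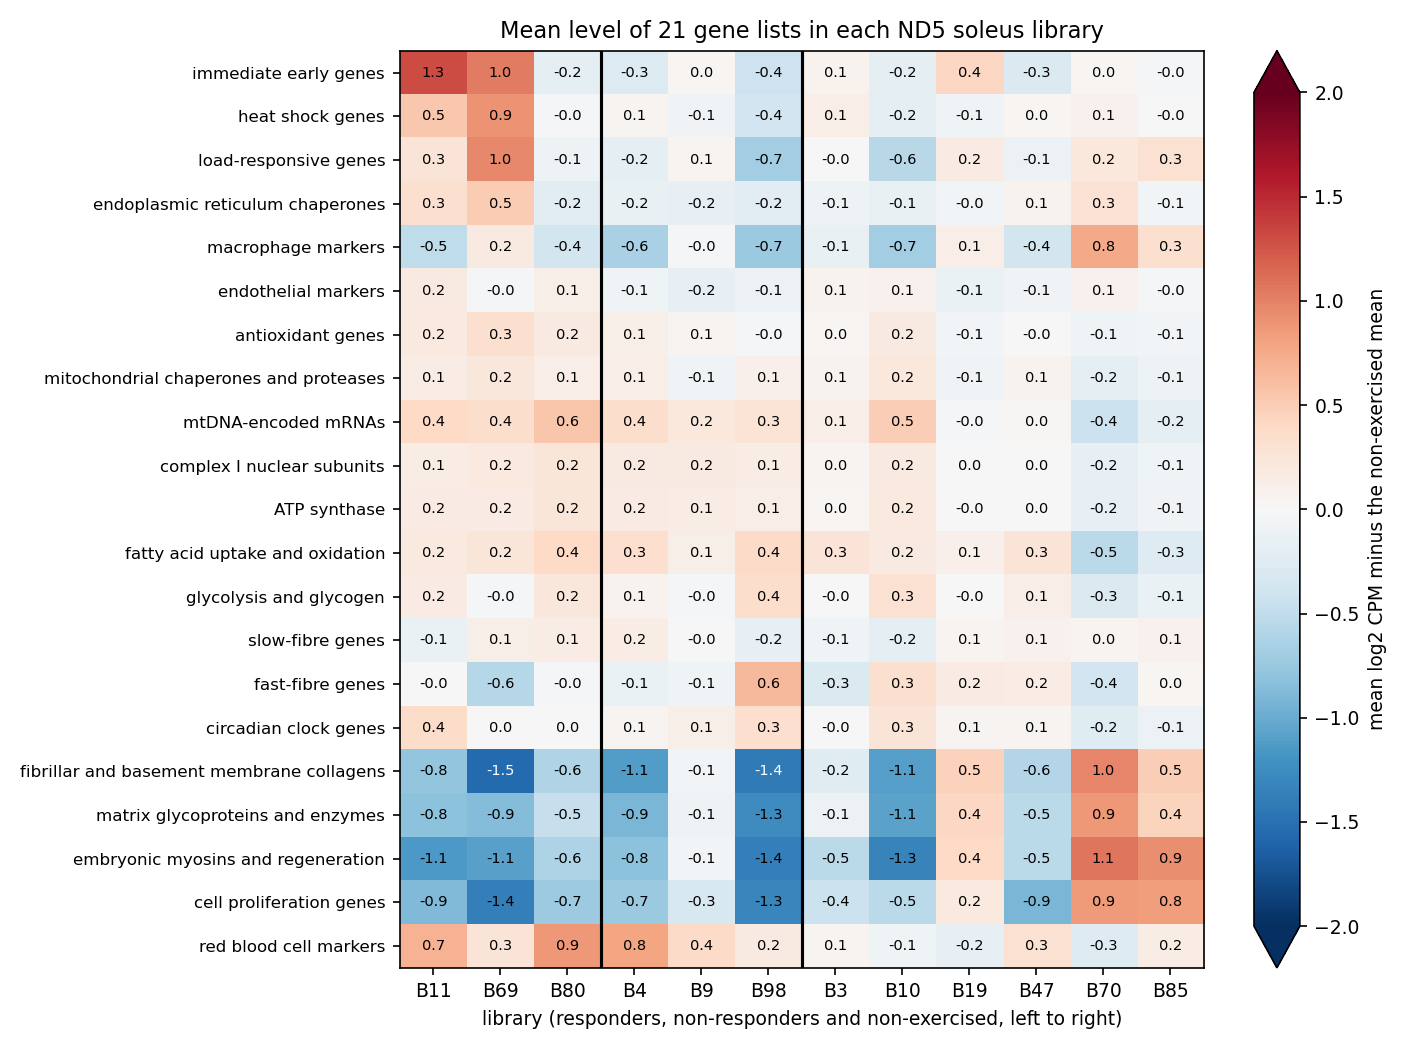
Mean log2 CPM of each of 21 gene lists in each ND5 soleus library, minus the mean of the non-exercised libraries; colour and printed value give the same quantity, and vertical lines part responders, non-responders and non-exercised mice. Immediate early, heat shock, load-responsive and endoplasmic reticulum chaperone genes are high in B11 and B69 and not in B80, while mtDNA-encoded mRNAs are above 0 in all 6 trained libraries.

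Endothelial genes had higher summed levels in all 3 responders than in any non-responder. Of 12 tested, 11 had a positive log2 difference, 3 were higher at an unadjusted p under 0.05 and 4 did not overlap between classes, with a median of 0.25. Their summed level was 433, 389 and 416 CPM in responders, against 358, 328 and 357 CPM in non-responders and 345 to 417 CPM in non-exercised mice. The non-exercised mice spanned parts of both ranges. The list median was 0.15 to 0.26 when any 1 library was left out. Over all genes, 4.16% were higher at that p and 5.07% lay above without overlap.

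Pecam1, the junctional adhesion protein CD31, had 72, 73.1 and 72.9 CPM in responders, against 55.9, 53.3 and 53.2 CPM in non-responders and 51.9 to 72.1 CPM (median 66.1) in non-exercised mice. The 3 responders were nearly equal and stood well clear of the non-responders. Its log2 difference was 0.42 ± 0.11 (SE, n = 3 each; edgeR unadjusted p = 0.00193, adjusted p = 0.692).

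Sox18, a transcription factor of vessel and lymphatic development, had 15.2, 15.5 and 12.5 CPM in responders, against 7.24, 9.42 and 8.62 CPM in non-responders and 11.7 to 19.5 CPM (median 13) in non-exercised mice. Non-responders lay below all 9 other libraries, and responders lay within the non-exercised range. The log2 difference was 0.77 ± 0.19 for responders over non-responders, 0.05 ± 0.16 for responders over non-exercised mice and -0.72 ± 0.17 for non-responders over non-exercised mice, none of which passed in edgeR's adjusted test.

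Kdr, the main VEGF receptor of endothelium, had 50.5, 57.4 and 34.7 CPM in responders, against 33.4, 24.8 and 26.2 CPM in non-responders. Cdh5, the endothelial cadherin, had 47, 56 and 50.7 CPM in responders, against 44.2, 38.4 and 45.9 CPM in non-responders. Neither gene overlapped between classes, though B80 and B4 lay close together for Kdr.

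Among the other genes with the smallest p for higher levels in responders, St8sia5, a sialyltransferase of gangliosides, had 30.6, 41.6 and 21.9 CPM in responders, against 17.1, 12.5 and 20.8 CPM in non-responders. Large, a glycosyltransferase that modifies dystroglycan, had 63.9, 69.4 and 53.6 CPM in responders, against 42.4, 44.1 and 50.6 CPM in non-responders. Lclat1, an acyltransferase that remodels cardiolipin, had 33.5, 34 and 35.1 CPM in responders, against 27.2, 24.6 and 28.2 CPM in non-responders. None of them overlapped between classes, which choosing by p favours and which held in this direction for 5.07% of all genes. For Lclat1 the 3 responders were nearly equal.

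The growth kinase Akt1 belonged to the same pattern, with 96.6, 83 and 71 CPM in responders, against 59.4, 56.2 and 68.2 CPM in non-responders. Its list of 19 myostatin and growth pathway genes had a median of 0.01, with 1 higher and 1 lower at an unadjusted p under 0.05. Across all genes, 4.16% were higher and 2.89% lower at that p. Slc16a1, a lactate and pyruvate carrier, had 197, 197 and 149 CPM in responders, against 125, 124 and 131 CPM in non-responders, again with no overlap.

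The genes named for lower levels in responders by the smallest p did not overlap between the classes, B80 included. Choosing by p in this contrast favours such genes, and 746 of the 13737 genes tested (5.43%) lay below in all 3 responders. Rsrp1, an arginine- and serine-rich protein, had 293, 184 and 161 CPM in responders, against 382, 530 and 455 CPM in non-responders and 263 to 439 CPM (median 376) in non-exercised mice. B80 was the lowest of all 12 libraries and B9 the highest. Responders over non-responders gave a log2 difference of -1.10 ± 0.23 (SE, n = 3 each; edgeR adjusted p = 0.692; 0.0206 in the 48-library fit; DESeq2 adjusted p = 0.0105).

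Abcc5, an organic anion exporter of the ABC family, had 66.5, 52.9 and 45.9 CPM in responders, against 95.1, 86.2 and 82 CPM in non-responders and 64.9 to 83.4 CPM (median 78.7) in non-exercised mice. The classes stood well apart, and the log2 difference was -0.67 ± 0.14 (edgeR adjusted p = 0.692; 0.0343 in the 48-library fit; DESeq2 adjusted p = 0.0220).

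Pnisr, a serine- and arginine-rich nuclear protein, had 90.1, 74.3 and 53.3 CPM in responders, against 115, 122 and 107 CPM in non-responders. Rbm4b, an RNA-binding protein, had 11.9, 10.4 and 9.20 CPM in responders, against 18, 15.2 and 17.4 CPM in non-responders. Ogt, the enzyme that adds N-acetylglucosamine to intracellular proteins, was picked after its values were seen and had 124, 123 and 81.1 CPM in responders, against 157, 160 and 157 CPM in non-responders. No responder reached a non-responder level for these genes, and B80 was the lowest each time. No list of RNA-processing genes was tested, so no theme is drawn from them.

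Further genes of this direction were the spindle pole protein Sfi1, the kinesin Kifc2, the metalloprotease Adamts10, the ciliary gene Lztfl1, the glycolipid anchor gene Pigc, Gprasp1 and Zfp956. Their log2 differences lay between -0.47 and -0.88, all 7 without overlap between classes, as was the case for 5.43% of all genes. Kifc2 was low, at most 5.45 CPM in any trained library. Where such genes overlap others on the opposite strand, reads cannot be assigned, since the labels do not say whether counting used strand.

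Per3, a repressor of the circadian clock, had 32.3, 17.7 and 16.7 CPM in responders, against 33.5, 38.5 and 52 CPM in non-responders and 24.5 to 37.5 CPM (median 28) in non-exercised mice. B11 lay just under B4 and the other responders well below. The log2 difference was -0.90 ± 0.24 (edgeR adjusted p = 0.692). The 18 clock genes had a median of -0.18, with 2 higher and 1 lower at an unadjusted p under 0.05. For all genes these shares were 4.16% higher and 2.89% lower. The labels give no hour of dissection.

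Differences in mitochondrial transcripts between the classes were small. All 13 mtDNA-encoded mRNAs had a positive log2 difference, 1 of them at an unadjusted p under 0.05 and 5 with no overlap, and their median was 0.14, or 0.08 without B80. The shares over all genes were 4.16% higher at that p and 5.07% above without overlap. The 37 mtDNA genes took 18.6%, 18.3% and 20.2% of counts in responders, against 18.2%, 17.8% and 17.8% in non-responders and 12.9% to 19.3% (median 15.6%) in non-exercised mice. The difference of responders over non-responders was 1.14 percentage points (exact permutation p = 0.10, adjusted p = 0.119), and 0.553 points without B80.

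The gene with the smallest p in that list was mt-Nd3, another membrane-arm subunit of complex I, with 305, 337 and 339 CPM in responders, against 265, 216 and 243 CPM in non-responders. All 3 responders lay above the non-responders, with a log2 difference of 0.44 ± 0.17 (edgeR adjusted p = 0.692). Oligo(dT) selection bears on mitochondrial mRNA levels, since their tails are short.

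Nuclear genes of oxidative metabolism were close to 0. The median log2 difference was 0.03 for 36 complex I subunits, 0.04 for 27 subunits of complexes II to IV, 0.04 for 15 ATP synthase genes, 0.07 for 23 genes of the tricarboxylic acid cycle and 0.03 for 27 genes of fatty acid oxidation, with 0 genes of these 5 lists at an unadjusted p under 0.05. Of 23 regulators of mitochondrial biogenesis, 2 were higher at an unadjusted p under 0.05. The coactivator gene Ppargc1b had the smallest p of them, at 13.7, 7.96 and 5.21 CPM in responders, against 5.19, 5.14 and 6.55 CPM in non-responders, and its classes overlapped. The 16 mitochondrial chaperones and proteases had a median of 0.13, 14 of them positive, and 1 at an unadjusted p under 0.05. For these lists the share over all genes was 4.16% higher and 2.89% lower at that p.

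The classes overlapped in every adult myosin heavy chain. Myh7, the slow myosin heavy chain, made up 35.6%, 48.1% and 46.6% of the summed FPKM of the 4 adult isoforms in responders, against 45.3%, 43.7% and 38.1% in non-responders. Myh2, the fast oxidative isoform, made up 40.3%, 39.4% and 33.5% in responders, against 39.4%, 40.3% and 26.5% in non-responders. Both classes spanned similar ranges, and exact permutation tests over 12 contrasts gave adjusted p = 0.976 each.

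Myh4, the fastest isoform and scarce in soleus, was carried by single libraries. It made up 0.788%, 0.0376% and 0.318% in responders, against 0.294%, 0.356% and 13.9% in non-responders and 0.0724% to 5.78% (median 4.08%) in non-exercised mice. Only B98 was high among the trained mice. Actn3, the fast-fibre actinin, followed it with 153, 66.1 and 154 CPM in responders, against 135, 213 and 992 CPM in non-responders. The 23 fast-fibre genes had a median log2 difference of -0.12, with 21 negative. Of them, 2 were lower at an unadjusted p under 0.05, against 2.89% of all genes. The Myh4 difference was -3.81 ± 1.84 with B98 and 0.31 without it.

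**Figure D3:**
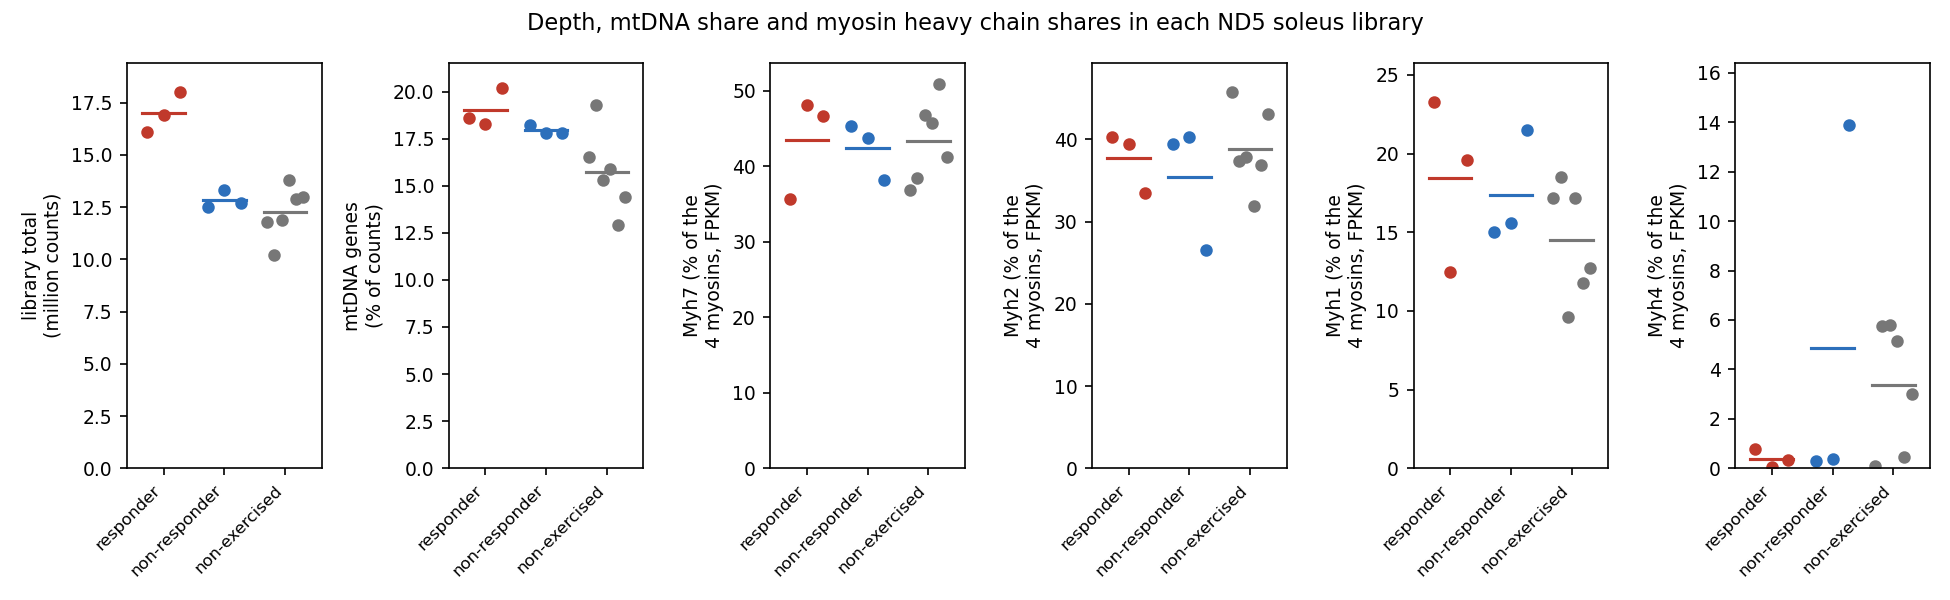
Library total in units of 1000000 counts, share of counts from mtDNA genes, and share of each adult myosin heavy chain in the summed FPKM of the 4, one point per ND5 soleus library with a line at the group mean. Responder libraries are deeper than all others, mtDNA shares of the trained mice lie in the upper part of the non-exercised range or above it, and Myh4 is high in 1 non-responder and in 4 non-exercised mice.

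Matrix, regeneration and proliferation genes varied more within groups than between the classes. The median log2 difference was -0.27 for 18 collagens, -0.08 for 28 other matrix genes, -0.13 for 21 regeneration genes and -0.26 for 20 proliferation genes. In the matrix and the regeneration list 1 gene each was higher at an unadjusted p under 0.05, against 4.16% of all genes. The collagens summed to 1437, 690 and 1599 CPM in responders, against 1092, 2630 and 769 CPM in non-responders. B69 was the lowest trained library and B9 the highest, and the collagen median was 0.01 without B69. Myh3, the embryonic myosin of regenerating fibres, picked after its values were seen, had 60.8, 20.7 and 171 CPM in responders, against 136, 472 and 56.8 CPM in non-responders and 54.2 to 2220 CPM (median 632) in non-exercised mice.

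Responders were also set against the 6 non-exercised ND5 mice. No gene passed the adjusted test in the 12-library edgeR fit, where the smallest adjusted p was 0.363 and 1605 genes had an unadjusted p under 0.05 (11.7%), 727 higher (5.29%) and 878 lower (6.39%). The 3 responders lay above all 6 non-exercised libraries for 1.89% of genes and below them for 1.93%. The 48-library fit called 128 genes (0.886%), 94 higher (0.650%) and 34 lower (0.235%), and DESeq2 called 46. The 48-library count was 2 without B69, 190 without B11 and 436 without B80. Without B80 the 12-library fit called 7 genes, all higher in responders, namely Flnc, Xirp1, Ifrd1, Atf3, Btg2, Ppp1r15a and Dnajb1. It called 0 without B69 and 0 without B11.

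Mitochondrial genes had positive differences in responders over non-exercised mice, with groups that overlapped in their sums. The 13 mtDNA-encoded mRNAs were all positive, 8 at an unadjusted p under 0.05, with a median log2 difference of 0.44 against 0.01 for all genes. All 36 nuclear complex I subunits were positive, 15 at an unadjusted p under 0.05, with a median of 0.18. The share of all genes higher at that p was 5.29%. mt-Nd3, with 305, 337 and 339 CPM in responders, had 174 to 302 CPM (median 213) in non-exercised mice. The 13 mRNAs summed to 189100, 187200 and 214800 CPM in responders, against 105300 to 197000 CPM in non-exercised mice, and the 36 complex I subunits to 7748, 7866 and 8166 CPM against 6089 to 7978 CPM. The non-exercised B10 exceeded B11 and B69 in both sums. Only B80, whose label is in doubt, lay above every non-exercised library in both, and these list values are not given without it. The mtDNA share of counts was 3.32 percentage points above the non-exercised mean (exact permutation p = 0.0714, adjusted p = 0.119). Without B19, B70 and B85, left out after the data were seen, the medians were 0.21 for the mRNAs and 0.11 for the subunits. In that fit 2 of 13 mRNAs and 0 of 36 subunits were higher at an unadjusted p under 0.05, against 301 of 13350 genes. These libraries had the lowest mtDNA shares and complex I sums, so leaving them out lowers such medians by itself.

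The mitochondrial ribosome gene Mrps18b had the smallest p for a higher level in responders among the genes named for this contrast, at 41.7, 51.6 and 38.7 CPM in responders, against 28.8 to 33.4 CPM (median 31.9) in non-exercised mice. Responders over non-exercised mice gave a log2 difference of 0.48 ± 0.09 (edgeR adjusted p = 0.363; 0.00332 in the 48-library fit). Trim16, a ubiquitin ligase linked to stress responses, had 64.7, 72.3 and 51.1 CPM in responders, against 36.3 to 48.3 CPM (median 42.9) in non-exercised mice. The responders lay above the non-exercised range for both genes, as they did for Usp38, Ddx56 and Rapgef4. Choosing by p in this contrast favours such genes, and 1.89% of all genes lay above in this way.

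Red blood cell transcripts had positive differences as well. All 5 tested markers were higher at an unadjusted p under 0.05, against 5.29% of all genes, with a median log2 difference of 0.63. Their summed level was 360, 262 and 369 CPM in responders, against 192 to 263 CPM in non-exercised mice. Hba-a1, an alpha globin, had 77.0, 54.6 and 76 CPM in responders, against 35.9 to 52.3 CPM (median 45.2) in non-exercised mice, and blood left in the tissue cannot be told apart from expression within it.

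Collagens and proliferation genes had negative differences in responders over non-exercised mice, and B19, B70 and B85 lay above all other libraries in both sums. All 18 collagens were negative, 11 at an unadjusted p under 0.05, with a median of -1.05. Of 20 proliferation genes, 19 were negative and 11 lower at an unadjusted p under 0.05, with a median of -1.19. The share of all genes lower at that p was 6.39%. The non-exercised collagen sums ran from 1120 to 5036 CPM and enclosed 2 of the 3 responders, with 3543, 5036 and 3957 CPM in B19, B70 and B85 and 1120 to 2094 CPM in the other 3. The same 3 libraries held 1020, 1740 and 2220 CPM of Myh3, against 54.2 to 246 CPM in the other non-exercised mice, and 461.2, 680.1 and 421.4 CPM of summed tendon cell markers, against 154 to 365 CPM in responders and 161 to 296 CPM in the other non-exercised mice. The part of these markers in the result was not tested. Without the 3 libraries the median was -0.37 for the collagens and -0.23 for 14 proliferation genes still tested, with 0 genes of either list at an unadjusted p under 0.05. Leaving out the highest controls shrinks such medians by itself, and fewer controls leave fewer genes at that p. No conclusion is drawn from the change.

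Among single genes lower in responders, Adamts10, a secreted metalloprotease, had 10.6, 5.49 and 7.91 CPM in responders, against 12.9 to 15.6 CPM (median 14.3) in non-exercised mice. Lig1, the replicative DNA ligase, had 1.06, 1.14 and 1.17 CPM in responders, against 1.67 to 4.28 CPM (median 3.22). Rbl1, a pocket protein of the cell cycle, had 1.06, 1.26 and 1.41 CPM in responders, against 2.14 to 3.86 CPM (median 2.51). Responders lay below all non-exercised mice for the 3 genes, at low levels for the last 2. The choice by p favours this, and 1.93% of all genes lay below in the same way.

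Non-responders were set against the same 6 non-exercised libraries, so the comparison shares its control with the one above. No gene passed in either edgeR fit, with 746 genes at an unadjusted p under 0.05 in the 12-library fit (5.43%), 317 higher (2.31%) and 429 lower (3.12%). The 3 non-responders lay above all 6 non-exercised libraries for 1.42% of genes and below them for 1.16%, and DESeq2 called 1 gene known only by a clone name, lower in non-responders. The median of the immediate early genes was 0.60 in responders over non-exercised mice and -0.29 in non-responders over non-exercised mice. The load-responsive genes had 0.41 and -0.21, the heat shock genes 0.31 and -0.05 and the endoplasmic reticulum chaperones 0.16 and -0.21 in the same order of groups.

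Mitochondrial genes had mostly positive differences in non-responders over non-exercised mice. The mtDNA-encoded mRNAs were 13 of 13 positive with a median log2 difference of 0.27 and none at an unadjusted p under 0.05. Of 36 nuclear complex I subunits 35 were positive, 10 of them at that p, with a median of 0.17. The share of all genes higher at that p was 2.31%. Ndufb4, an accessory subunit of complex I, had 73, 84 and 77.0 CPM in non-responders, against 49.5 to 69.4 CPM (median 59.7) in non-exercised mice. The summed mtDNA-encoded mRNAs were 185900, 164200 and 180000 CPM in non-responders, all under the 197000 CPM of the non-exercised B10, as were the complex I sums. The mtDNA share of counts was 2.18 percentage points higher (exact permutation p = 0.119). Without B19, B70 and B85 the medians were 0.06 for the mtDNA-encoded mRNAs and 0.08 for the complex I subunits. These libraries were the lowest in both measures, so leaving them out lowers such medians by itself.

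The collagens were negative in 18 of 18 genes with a median of -0.92, the proliferation genes in 20 of 20 with a median of -0.99, and the macrophage markers in 17 of 17 with a median of -0.51. Without B19, B70 and B85 these medians were -0.12, -0.10 and -0.10. Those libraries were the highest in the collagen and proliferation sums, so leaving them out shrinks the medians of these lists by itself. Red blood cell markers were positive in 5 of 5 with a median of 0.54. The shared control libraries enter these values and those of the responders above.

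Single genes with the smallest p in non-responders were Creg1, a lysosomal glycoprotein, with 49.4, 47.4 and 51.9 CPM in non-responders against 33.4 to 43.3 CPM (median 37.1) in non-exercised mice, and the mitochondrial ribosome gene Mrpl35, with 38.6, 38.1 and 34.7 CPM against 28 to 32.4 CPM (median 29.2). Lower genes were Sox18, given above, and Lgals3bp, a secreted glycoprotein induced by interferon, with 5.53, 6.81 and 5.97 CPM in non-responders against 7.40 to 16.0 CPM (median 10.5). These genes did not overlap between non-responders and non-exercised mice, which choosing by p favours. Of all genes, 1.42% lay above and 1.16% below without overlap.

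**Figure D4:**
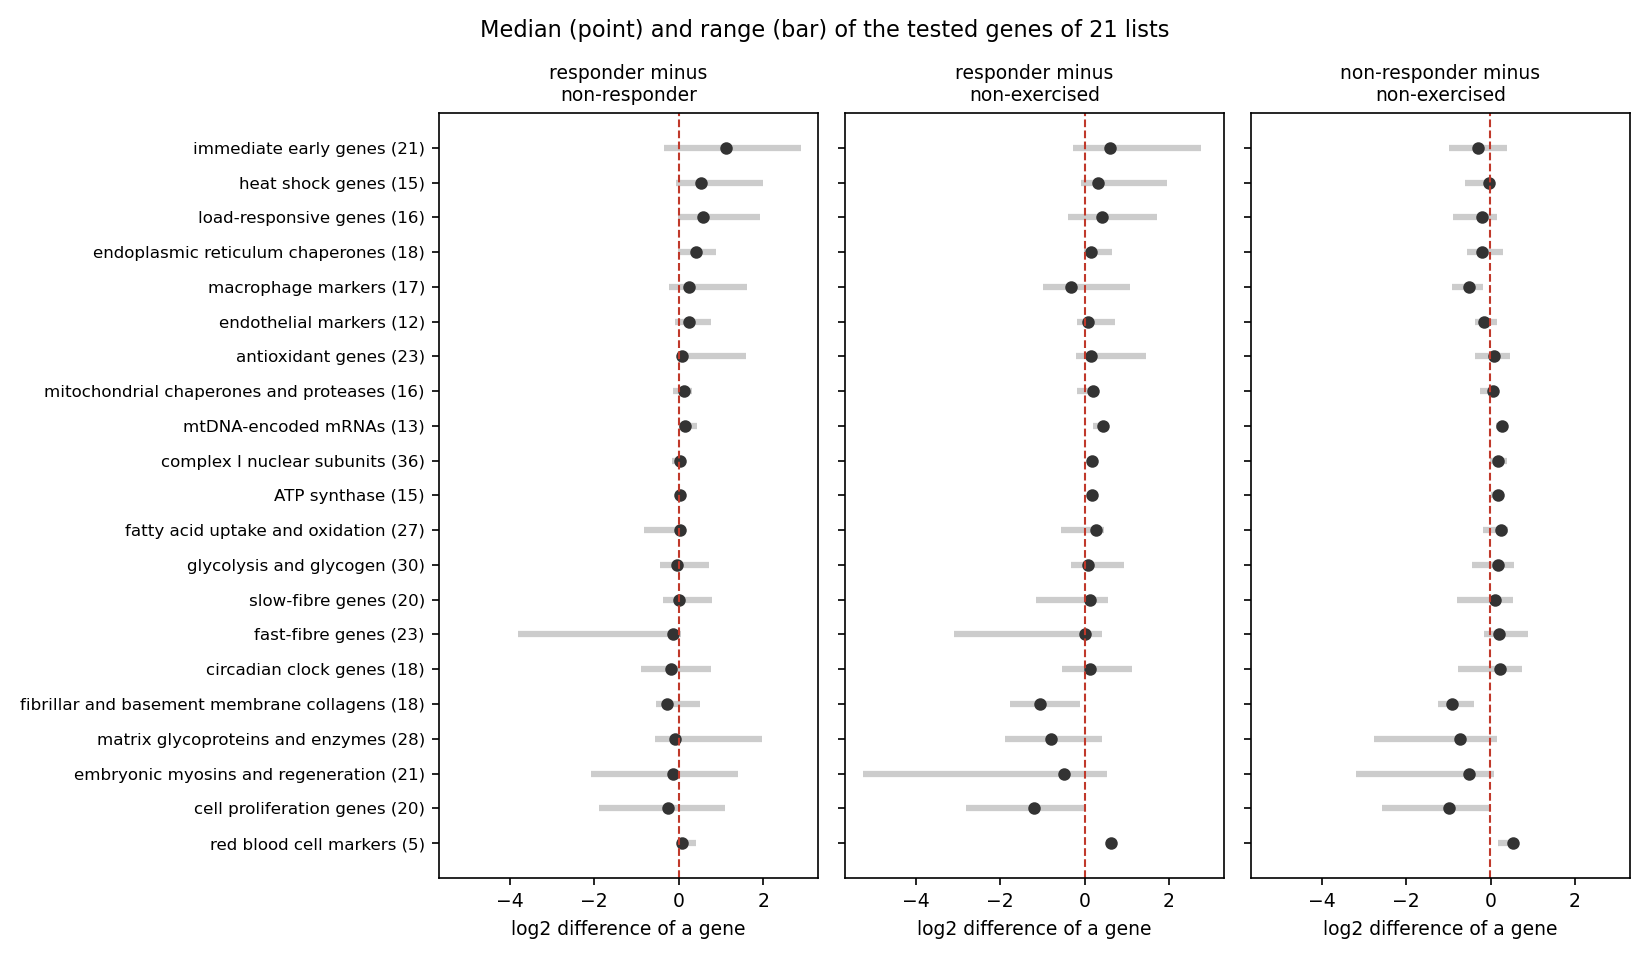
Median (point) and range (bar) of the log2 differences of the tested genes of 21 lists, with the number of genes in brackets, for responders minus non-responders, responders minus non-exercised and non-responders minus non-exercised mice; the dashed line is the median of all genes. The immediate early genes have the highest median of these lists in the first panel, at 1.12, and the collagen and proliferation lists lie left of the line in the other panels.

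The same contrast exists in 3 other mutant strains, ANT1 (lacking the nucleotide carrier Slc25a4), CO1 and ND6 (mtDNA changes in complex IV and complex I genes), with 3 responders and 3 non-responders each. The fit of 48 libraries called 0 genes in each of them, with 641, 361 and 448 genes at an unadjusted p under 0.05. The difference between the ND5 contrast and the mean of the other strains passed for 0 of 14451 genes in edgeR, with 1079 at an unadjusted p under 0.05 (7.47%), 687 higher (4.75%) and 2.71% of genes lower in ND5. DESeq2 called 13. The edgeR count was 118 without B80, 10 without B11 and 0 without B69.

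Atf3 and Btg2 came closest. The ND5 contrast exceeded the mean of the other strains by 3.21 ± 0.62 for Atf3 and by 2.40 ± 0.47 for Btg2 on the log2 scale (edgeR adjusted p = 0.0731 for both; DESeq2 adjusted p = 0.000616 for both). The Atf3 contrast itself was 2.89 ± 0.55 in ND5, -0.80 ± 0.57 in ANT1, -1.02 ± 0.53 in CO1 and 0.87 ± 0.53 in ND6. Among all 48 libraries, scaled together, B11 and B69 ranked 1st and 2nd for Atf3 and for Btg2, and the highest Atf3 level in the other strains was 78.7 CPM.

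On the low side, the ND5 contrast lay under the mean of the other strains by a log2 difference of -0.94 ± 0.23 for Rsrp1 and of -0.40 ± 0.09 for Zfp512 (edgeR adjusted p = 0.212 and 0.120). The Rsrp1 contrast was -0.20 ± 0.20 in ANT1, -0.09 ± 0.20 in CO1 and -0.20 ± 0.20 in ND6, smaller than in ND5. B80 ranked last of 48 for Rsrp1, Abcc5, Kifc2, Ogt and Pnisr.

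**Figure D5:**
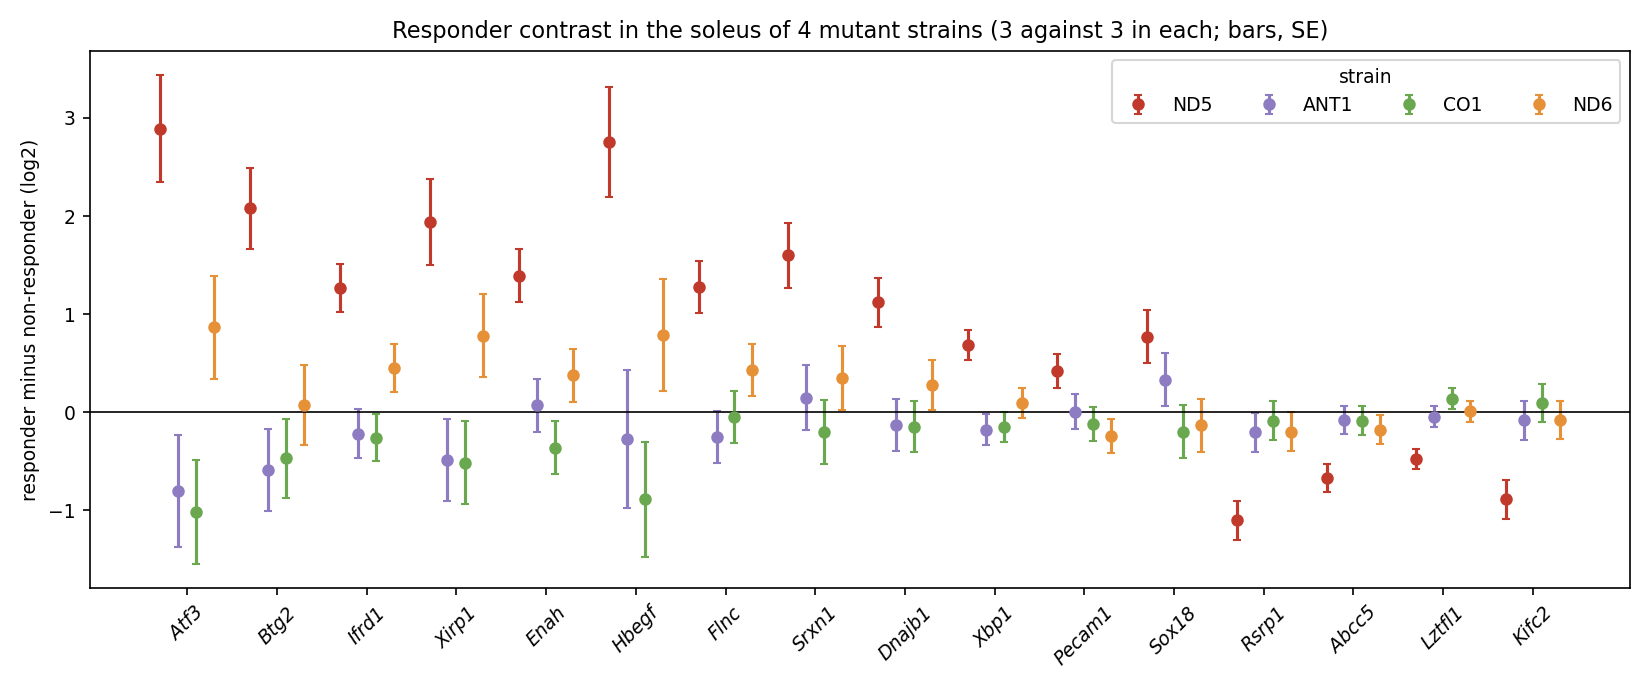
Log2 difference of responders over non-responders (points; bars, SE) in the soleus of ND5, ANT1, CO1 and ND6 mice for 16 genes, all from the fit of 48 libraries with 3 mice against 3 in each strain. The ND5 points for Atf3, Btg2, Xirp1 and Hbegf lie above those of the other strains, and the ND5 point for Rsrp1 lies below them.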

How the data were processed

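RNA of soleus muscle was measured in 12 ND5 libraries and, for the difference between strains, in 48 libraries of 4 mutant strains. Libraries were made from oligo(dT)-selected mRNA and read as pairs, per the labels' protocols. The authors deposited a table of expected counts per gene (53656 genes), and STAR 2.5.2b, RSEM 1.2.28 and the mm10 build are listed in the submitters' processing notes. They also deposited a table of FPKM values, used here only for the shares of myosin heavy chains, the soleus markers and as an alternative for the mtDNA share. Of 60 columns in the soleus table, 12 fitted no sample title and were left out. Groups came from the labels.

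Expected counts were rounded, filtered with filterByExpr by group (minimum count 10), scaled by TMM and tested with edgeR 4.0.16 (quasi-likelihood F test, robust, R 4.3.3) with a mean for each of the 3 ND5 groups, and p-values were adjusted by Benjamini-Hochberg over all 13737 genes tested. Levels are CPM scaled to library size and TMM factor, and log2 CPM used a prior count of 2. A positive difference is higher in the group named first. For single values per library, the test was an exact permutation test (two-sided). On counts simulated for 13737 genes with this design, edgeR called 74 of 100 genes changed 2-fold and 95 of 100 changed 4-fold, with 8 false calls. The changed genes were drawn from the better-expressed ones and changed alike in all 3 simulated responders. These shares therefore do not apply to low genes, nor to changes that split the responders, as many did here. The alternatives used DESeq2 1.42.0, limma 3.58.1, other filters, scalings and sets of libraries, and each library left out in turn. The 48 gene lists (802 entries, 736 tested) have no test of their own and are described by counts and medians. Named genes were those with the smallest p in each contrast (average log2 CPM of at least 1), the 3 of each list with the smallest p, mt-Nd5, Nnt and the adult myosins, and others are said to be picked after their values were seen. One gene that the rule names is not reported here. The comparison, lists and rules were chosen with earlier results of these data known. Depth ranged from 10205676 to 18001421 counts. Averaged over genes, the spread between mice of a group exceeded counting error. For genes with few counts, such as Csf3r, Ccl2, Lig1 and Rbl1, counting error can be of similar size.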

Additional observations from a re-analysis of the deposited data

Results flagged for a closer look

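Each of 112 sets of 6 non-exercised ND5 libraries, 1 for each value named, was examined for a library far from the rest, which chance alone gives in about 1 in 20 sets. In B70, Sox18 was the highest at 4.30 log2 CPM, against 3.57 to 3.78 in the other 5. Pnisr was the lowest there at 6.35 log2 CPM, against 6.62 to 6.72 in the others.

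The responder contrast in ND5 and in another strain ran in opposite directions, with no overlap between classes in either, for 5 of 318 pairs of gene and strain. None of these differences was tested for its strain alone. Many of the genes were named by the smallest p in ND5, which favours no overlap there. In ND5, 5.07% of all genes lay above and 5.43% below without overlap. The share of such opposite pairs over all genes was not computed, so the 5 are listed and not read as strain differences. For Egr1 the log2 difference of responders over non-responders, in the fit of 48 libraries as for all 5, was 2.82 in ND5 and -0.80 in CO1. For Enah it was 1.39 in ND5 and -0.36 in CO1. For Xbp1 it was 0.69 in ND5 and -0.15 in CO1. Ly6a, a surface marker of progenitor and endothelial cells, had 0.21 in ND5 and -0.24 in CO1. Zfp512 had -0.30 in ND5 and 0.16 in ND6.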

How the results depend on the processing

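The number of genes called depended on the tool and the libraries. For responders against non-responders, edgeR called 0 genes in the fit of 12 libraries, with RLE scaling, with no filter, with a stricter filter, in 24 trained libraries and in the 6 alone, while the fit of 48 libraries called 34 and DESeq2 called 9. Leaving out 1 library gave 0 to 322, the highest in the 48-library fit without B80. For responders against non-exercised mice the counts were 128 in the 48-library fit and 46 with DESeq2, and 0 to 436 with 1 library left out. For non-responders against non-exercised mice DESeq2 called 1. For the difference between strains DESeq2 called 13, and leaving out 1 library gave 0 to 118. Without the non-exercised B19, B70 and B85 edgeR called 0 genes in either contrast with non-exercised mice, with 596 and 208 at an unadjusted p under 0.05. That fit and the 48-library fits with a library left out were added after the data were seen.

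Of 118 results, each a named gene in 1 of the contrasts, 61 passed the threshold in at least 1 alternative. The sign turned in at least 1 alternative for 10, all of them differences between responders and non-responders. With voom quality weights the log2 difference turned to -0.015 for Nnt and -0.15 for Myh7. With 1 library left out it ranged from -0.23 to 2.08 for Itgam, -0.39 to 2.60 for Timp1, -4.80 to 0.31 for Myh4, -0.00471 to 0.25 for mt-Nd5, -0.23 to 0.22 for Nnt, -0.18 to 0.13 for Myh7, -0.055 to 0.18 for Myh2, -0.13 to 0.33 for Myh1, -0.18 to 0.44 for Alas2 and -0.24 to 2.61 for Ankrd1. The cause was not tested.

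Myosin shares for responders over non-responders ranged with 1 library left out from -1.27 to 4.99 percentage points (Myh7), -2.13 to 4.79 (Myh2), -1.34 to 4.05 (Myh1) and -6.76 to 0.0560 (Myh4). Responders over non-exercised mice ranged from -2.24 to 4.01 (Myh7) and -2.43 to 1.04 (Myh2). Non-responders over non-exercised mice ranged from -2.45 to 1.15 (Myh7), -5.85 to 1.07 (Myh2) and -3.05 to 3.77 (Myh4), and the Myh7 value was 0.544 with counts in place of FPKM. No paired analysis was possible because the labels carry no replicate numbers that pair mice across groups. With 3 mice a class, exact tests cannot go below 0.10.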
